A study of Mus musculus with 4 samples.

Results

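The genes described are 7 structural genes of the desmosome in the mouse colon: the cadherins Dsg2 (desmoglein 2) and Dsc2 (desmocollin 2), the plakophilins Pkp2 and Pkp3, and the plakins Dsp (desmoplakin), Ppl (periplakin) and Evpl (envoplakin). They were taken by symbol from the deposited gene list, where all 7 were found among 32285 genes, and they were chosen as a structural family. The rule itself uses no measured value, but earlier results of these data were known when the members were chosen. Within the cells kept they held 53010 of 110615806 UMIs (unique molecular identifiers, one per captured transcript) in batch 1 and 37397 of 79883193 in batch 2. The study profiled single cells of the colon of C57/BL6J mice with a 3′ droplet kit, in 2 batches. Each batch pooled 4 conditions under 4 antibody hashtags: wild type and JUP-KO mice, each without treatment and with DSS (dextran sulfate sodium, which damages the gut epithelium). JUP is plakoglobin, another protein of the desmosome. The sources used here do not give how the knockout was made, the age of the mice, the dose of DSS or whether the batches are separate mice, so p-values cover only how far these samples differ, and that spread may be technical.

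The deposited files call the tags Ctrl_WT, TG_WT, Ctrl_DSS and TG_DSS. By these names, TG_WT is untreated JUP-KO and Ctrl_DSS is wild type with DSS. If the antibody numbering sets the order instead, those 2 tags change places. TG_DSS (JUP-KO with DSS) and Ctrl_WT (wild type, no DSS) keep their meaning either way. Cells are therefore called by tag name throughout.

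Desmosomes are cell to cell junctions that tie the keratin filaments of neighbouring epithelial cells together. Desmogleins and desmocollins cross the membrane and bind the cadherins of the next cell, plakoglobin and the plakophilins bind their tails, and desmoplakin links this plaque to keratin. Simple epithelia such as that of the gut use Dsg2 and Dsc2, whereas periplakin and envoplakin are best known from stratified epithelia, where they form part of the cornified envelope.

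The sequence upstream of the Dsp start is shown because Dsp is the linker on which the plaque depends and its level differed between epithelial subtypes below. It is taken from RefSeq's promoter table on GRCm38.p6, where 1 of the 7 genes was matched. It covers chr13:38151044-38151293 on the plus strand, with matches to GGGCGG on either strand in capitals, the latter written as its reverse complement.
Dsp: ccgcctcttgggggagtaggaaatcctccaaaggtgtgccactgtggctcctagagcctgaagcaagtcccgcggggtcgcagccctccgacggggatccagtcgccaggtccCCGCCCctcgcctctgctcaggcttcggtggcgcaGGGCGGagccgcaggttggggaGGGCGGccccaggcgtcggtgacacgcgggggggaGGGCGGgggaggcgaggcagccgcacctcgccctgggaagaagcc
These 250 bases hold 4 matches, 3 on the plus strand and 1 on the minus strand. The same motif occurs in 32.7% of 32851 promoters of that length, and 4.09% hold at least as many matches. The window is 72.4% G and C, against a median of 52.4%. A match is a run of letters and not a measured site.

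The deposited totals were 133919905 UMIs in batch 1 and 95408149 in batch 2. Filters left 13628 cells, with a median of 12305 UMIs per cell in batch 1 and 7090.5 in batch 2, and 14 barcodes occurred in both batches. Exactly 1 tag was called in 5525 cells, while 62.9% and 40.4% of cells in batches 1 and 2 carried none. Of the cells without several tags, 7897 fell in 13 epithelial-like clusters, built without the 7 genes and their partner genes. Levels are given as CPM, the UMIs of a gene per 1000000 UMIs of the summed cells. They are compared between cells and not between genes.

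The positions of the 7 genes are from GENCODE M21 on mm10. Dsp lies on chromosome 13 from 38151294 to 38198577 on the plus strand and Evpl on chromosome 11 from 116220559 to 116238077 on the minus strand. Dsg2 (20558074 to 20604521, plus strand) and Dsc2 (20030633 to 20059554, minus strand) are both in the desmosomal cadherin cluster of chromosome 18. Pkp2 (16213318 to 16272712, plus strand) and Ppl (5086291 to 5132421, minus strand) are both on chromosome 16, and Pkp3 spans 141078218 to 141090510 on the plus strand of chromosome 7. Whether the authors' counting used strand is not stated. Ppl ends 1 base from Ubn1 on the opposite strand, Pkp3 ends 664 bases from Sigirr on the opposite strand, and Dsg2 overlaps the antisense gene Gm16090, so reads near these ends could be split between neighbours. Dsp overlaps the unclassified gene Gm10129 on the minus strand.

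Most UMIs of each of the 7 genes came from epithelial-like cells, which were also the source of most UMIs of all genes. Epithelial-like cells were 71.8% of cells in batch 1 and 51.4% in batch 2 and held 85.5% and 74.2% of all UMIs. They held 89.6% and 91.1% of the Dsg2 UMIs, and 89.0% and 90.8% of the Dsp UMIs. The corresponding shares were 89.8% and 92.1% for Dsc2, 89.8% and 90.9% for Pkp2, and 91.5% and 92.5% for Evpl. Pkp3 (84.9% and 82.3%) and Ppl (88.3% and 81.9%) had the lower shares in batch 2, and the Pkp3 share of batch 1 was below that of all UMIs. These shares leave out the unnamed cluster described below, which held 7.82% and 4.50% of the Pkp3 UMIs and 2.85% and 1.75% of all UMIs. The epithelial marker Epcam stood at 5055 and 5785 CPM in that cluster, against 2933 and 3351 CPM in epithelial-like cells. Dsp stood at 159 CPM in batch 1 and 183 CPM in batch 2 in epithelial-like cells, and at 16.8 and 13.7 CPM in neutrophil-like cells, a type that should lack it. With each cell thinned to 2000 UMIs, so that depth is equal, a Dsp UMI was found in 27.7% and 32.0% of epithelial-like cells and in 2.33% and 1.74% of neutrophil-like cells. Their median depths before thinning were 16355 and 14354 UMIs against 2568 and 2931.5, and the unthinned shares were 75.2% and 75.7% against 4.24% and 3.14%. Thinning left out shallower cells, 310 and 185 epithelial-like and 197 and 139 neutrophil-like ones. The neutrophil-like share is taken as a measure of the background of free RNA, but epithelial transcripts differed between the other classes. Epcam stood at 168 and 113 CPM in neutrophil-like cells and 847 and 253 CPM in T, NK and innate lymphoid-like cells. It stood at 642 and 363 CPM in fibroblast-like and 439 and 97.5 CPM in dendritic-like cells. The neutrophil-like share may therefore understate the background where Epcam was higher.

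Pkp3 and Ppl had higher levels in some other classes than in epithelial-like cells. In T, NK and innate lymphoid-like cells Pkp3 stood at 42.1 CPM in batch 1 and 60.3 CPM in batch 2, and in dendritic-like cells at 58.3 and 44.5 CPM, against 25.1 and 31.1 CPM in epithelial-like cells. After thinning, a Pkp3 UMI was present in 7.06% (6 of 85 cells, exact 95% interval 2.63 to 14.7%) and 10.2% (20 of 197, 6.31 to 15.2%) of the lymphoid-like cells. The shares were 8.57% and 9.17% in dendritic-like, 5.54% and 7.33% in epithelial-like and 0.538% and 0.145% in neutrophil-like cells. A Dsg2 UMI was found in 5.88% and 0.508% of the thinned lymphoid-like cells and in 5.71% and 1.38% of the dendritic-like cells, against 1.79% and 2.47% of neutrophil-like cells. Dsg2 stood at 67.7 and 12.2 CPM and Dsp at 73.2 and 14.0 CPM in the lymphoid-like cells, so both were higher there in batch 1, and their part in the Pkp3 level was not tested. Sigirr, the neighbour of Pkp3, stood at 12.8 and 17.5 CPM in lymphoid-like cells, below Pkp3 there. Lymphoid-like cells had a median of 2706 and 2688.5 UMIs and dendritic-like cells of 7594.5 and 6228.

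Ppl was higher in fibroblast-like cells, at 15.05 and 12.63 CPM against 4.59 and 4.19 CPM in epithelial-like cells as a whole. Of thinned fibroblast-like cells, 4.46% and 2.51% had a Ppl UMI, against 1.06% and 0.863% of epithelial-like cells and 0 of 558 and 0 of 689 neutrophil-like cells, counts that allow up to 0.538% and 0.435%. Ubn1, which ends beside Ppl, stood at 40.1 and 58.9 CPM in fibroblast-like cells and 42.8 and 43.6 CPM in epithelial-like cells. In neutrophil-like cells, which held 1 Ppl UMI in each batch, it stood at 50.1 and 64.2 CPM. Whether a share of the low Ppl counts belongs to Ubn1 was not tested. Pkp2, Dsc2 and Evpl were at most 14.3, 26.5 and 3.58 CPM in fibroblast-like cells.

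**Figure D1:**
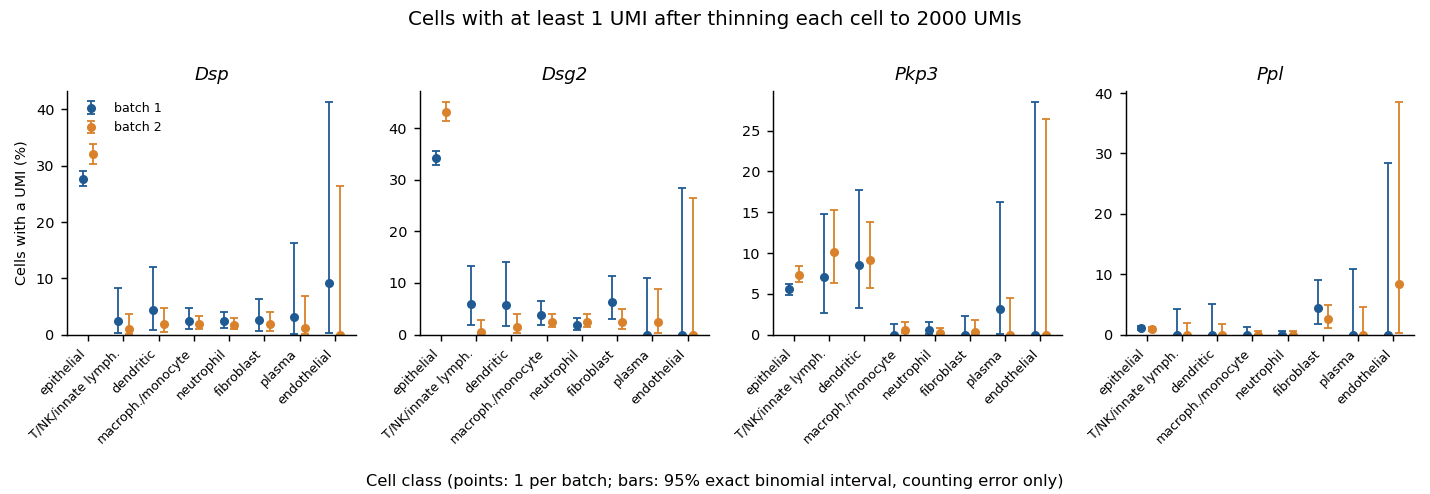
Share of cells with at least 1 UMI of Dsp, Dsg2, Pkp3 or Ppl after thinning to 2000 UMIs per cell (y axis, percent), by cell class and batch, with exact 95% binomial intervals that cover counting error only. Dsg2 and Dsp stand above all other classes in epithelial-like cells, while the Pkp3 shares of lymphoid-like and dendritic-like cells, 7.06 to 10.2%, lie beside those of epithelial-like cells.

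Among epithelial subtypes, the cadherin Dsg2 was highest in colonocyte-like cells, the absorptive cells of the colon surface. With all cells of a batch summed, it stood at 342 CPM in batch 1 and 424 CPM in batch 2 in colonocyte-like cells, at 279 and 280 CPM in tuft-like cells, at 169 and 259 CPM in enteroendocrine-like cells, at 136 and 137 CPM in stem and transit-amplifying-like cells and at 131 and 117 CPM in mucus-making goblet-like cells. The order of the last 2 rests on small differences. Dsc2 followed the same order at its top and differed at its foot: 110 and 106 CPM in colonocyte-like, 98.6 and 84.0 in tuft-like, 61.8 and 62.1 in stem-like, 51.2 and 45.7 in goblet-like and 43.2 and 30.1 CPM in enteroendocrine-like cells. Counted per cell, Dsg2 gave 5.19 and 6.62 UMIs in colonocyte-like cells and 2.91 and 2.61 in goblet-like cells, which were the deeper cells.

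The plakophilins, which pack the cadherin tails into the plaque, parted from each other. Pkp3 stood at 40.9 and 45.9 CPM in colonocyte-like cells and between 12.4 and 20.0 CPM in the other 4 subtypes. Tuft-like cells gave both ends of that range, and these 87 and 49 cells held 17 and 4 Pkp3 UMIs and 40 and 10 Pkp2 UMIs. Pkp2 stood at 30.3 and 30.5 CPM in colonocyte-like cells, 36.2 and 37.4 in stem-like cells, 31.4 and 37.5 in enteroendocrine-like cells, 47.0 and 31.1 in tuft-like cells and 24.8 and 20.6 CPM in goblet-like cells, so that stem-like cells lay above goblet-like cells in both batches.

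The plakins showed 3 patterns. Dsp stood at 235 and 263 CPM in colonocyte-like cells and at 227 and 265 CPM in tuft-like cells, which did not differ beyond the gap between batches, and at 98.4 to 104 CPM in goblet-like, 123 to 129 CPM in stem-like and 92.99 to 115 CPM in enteroendocrine-like cells. Evpl was high in colonocyte-like cells (15.6 and 19.4 CPM) and enteroendocrine-like cells (14.5 and 29.4 CPM), and stood at 1.63 and 1.28 CPM in goblet-like cells. The Ppl level was highest in enteroendocrine-like cells, the hormone-releasing cells, at 32.1 and 46.8 CPM, against 2.20 to 6.22 CPM in the other 4 subtypes. These cells are few and held 93 and 70 Ppl UMIs, against 152 and 40 in stem-like and 67 and 71 in colonocyte-like cells. Tuft-like cells, which gave the 6.22 CPM, held 3 and 2 Ppl UMIs.

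**Figure D2:**
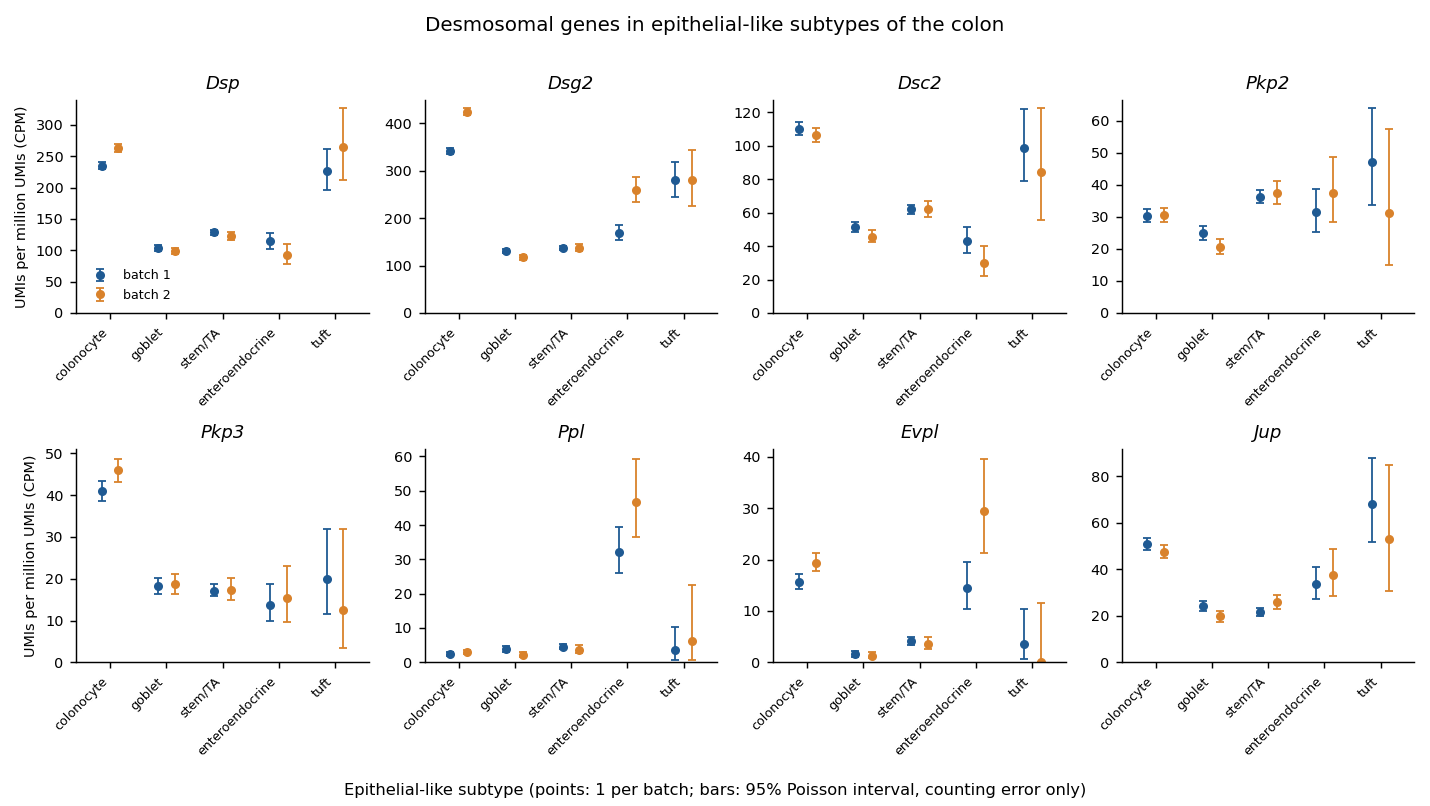
Level of each gene and of Jup (y axis, CPM from 0) in the epithelial-like subtypes, with all cells of a batch summed and exact 95% Poisson intervals for counting error. Dsg2, Dsc2 and Dsp are high in colonocyte-like and tuft-like cells, Pkp3 in colonocyte-like cells, and Ppl in enteroendocrine-like cells, while Pkp2 lies between 20.6 and 47.0 CPM.

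The subtype differences were tested over 22 sums of tagged cells (tag, batch and subtype, at least 10 cells each) with edgeR's quasi-likelihood test over 11032 genes, with the tag and batch as a block. In the goblet-like sums Dsg2 ranged from 94.4 through a median of 119 to 175 CPM, and in the colonocyte-like sums from 243 through 305 to 447 CPM. Dsp ranged from 82.7 through 100 to 149.95 CPM in goblet-like sums and from 178 through 211 to 264 CPM in colonocyte-like sums. In the same order, the ranges were 40.4 to 56.2 and 79.6 to 137 CPM for Dsc2 and 8.74 to 22.2 and 35.7 to 55.1 CPM for Pkp3. For Evpl they were 0 to 1.95 and 10.2 to 18.9 CPM.

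Of the 6 genes that passed the filter on low counts, 5 were lower in goblet-like than in colonocyte-like cells, where 25.2% of all genes tested were called lower, 31.2% higher and 56.4% in either direction. An unadjusted p under 0.05 was reached by 60.9%, and DESeq2 called 54.9%. Dsg2 was lower by a log2 difference of -1.34 (SE 0.14, adjusted p = 5.0e-08), which is 39.4% of the colonocyte-like level. The differences were -1.18 (SE 0.13) for Dsc2, -1.31 (SE 0.16) for Pkp3 and -1.04 (SE 0.12) for Dsp, with adjusted p-values of 1.8e-07, 4.3e-07 and 1.8e-07. Evpl gave -3.36 (SE 0.35, adjusted p = 6.3e-08). Its goblet-like sums held 0 to 6 UMIs each, and it did not pass the filter among goblet-like cells alone, so it may have entered the test through the colonocyte-like sums, where it is high, and its call is a description. Pkp2 did not pass (-0.35, SE 0.21, adjusted p = 0.155), and its sums overlapped, at 14.8 to 41.2 CPM in goblet-like and 21.8 to 38.1 CPM in colonocyte-like cells. Without the Ctrl_WT sums of batch 1 it did pass, at -0.51 (adjusted p = 0.0462). Ppl, at 0.898 to 5.37 CPM in goblet-like and 0.839 to 5.49 CPM in colonocyte-like sums, did not pass the filter. Jup itself was lower in goblet-like cells by -0.91 (adjusted p = 4.1e-04), a call that was lost without the block (-1.15, adjusted p = 0.0776).

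Within each of the 7 blocks of tag and batch that held both subtypes, Dsg2, Dsc2, Dsp and Pkp3 were lower in goblet-like cells 7 times of 7, against 18.6% of all genes. The log2 differences ran from -1.80 to -0.86 for Dsg2, from -1.49 to -0.94 for Dsc2, from -1.44 to -0.47 for Dsp and from -2.55 to -0.93 for Pkp3. Evpl was lower in the 6 blocks where goblet-like cells had any Evpl UMI, and Pkp2 was lower in 4 and higher in 3.

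Stem and transit-amplifying-like cells, the progenitors of the crypt, gave the same 5 calls, with 0 to 10 Evpl UMIs per stem-like sum. Here too Evpl may have entered the test through the colonocyte-like sums, where it is high, so its call is a description. Dsg2 stood at 105 to 243 CPM in their sums (median 139) and was lower than in colonocyte-like cells by -1.37 (SE 0.15, adjusted p = 1.0e-07). Pkp3 was lower by -1.40 (SE 0.17), Evpl by -1.73 (SE 0.33), Dsc2 by -0.96 (SE 0.14) and Dsp by -0.86 (SE 0.12), with adjusted p-values from 8.2e-07 to 1.5e-04. In this comparison 28% of all genes were called lower, 27.1% higher and 55.1% in either direction, with 59.7% at an unadjusted p under 0.05 and 54% called by DESeq2. The sums overlapped for Dsp (107 to 190 CPM in stem-like cells), Dsc2 (48.9 to 117 CPM), Pkp3 (12.5 to 46.2 CPM) and Evpl (0 to 13.0 CPM), although Dsp and Pkp3 were lower within all 7 blocks, as was Dsg2, against 13.4% of all genes. Dsc2 was lower in 6 of 7 blocks and Evpl in 5 of the 6 with a stem-like Evpl UMI. Pkp2 gave 0.15 (SE 0.21, adjusted p = 0.567), with 6 of 7 blocks higher in stem-like cells. Jup was lower by -0.97 (adjusted p = 4.6e-04), or -1.02 without the block (adjusted p = 0.150).

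**Figure D3:**
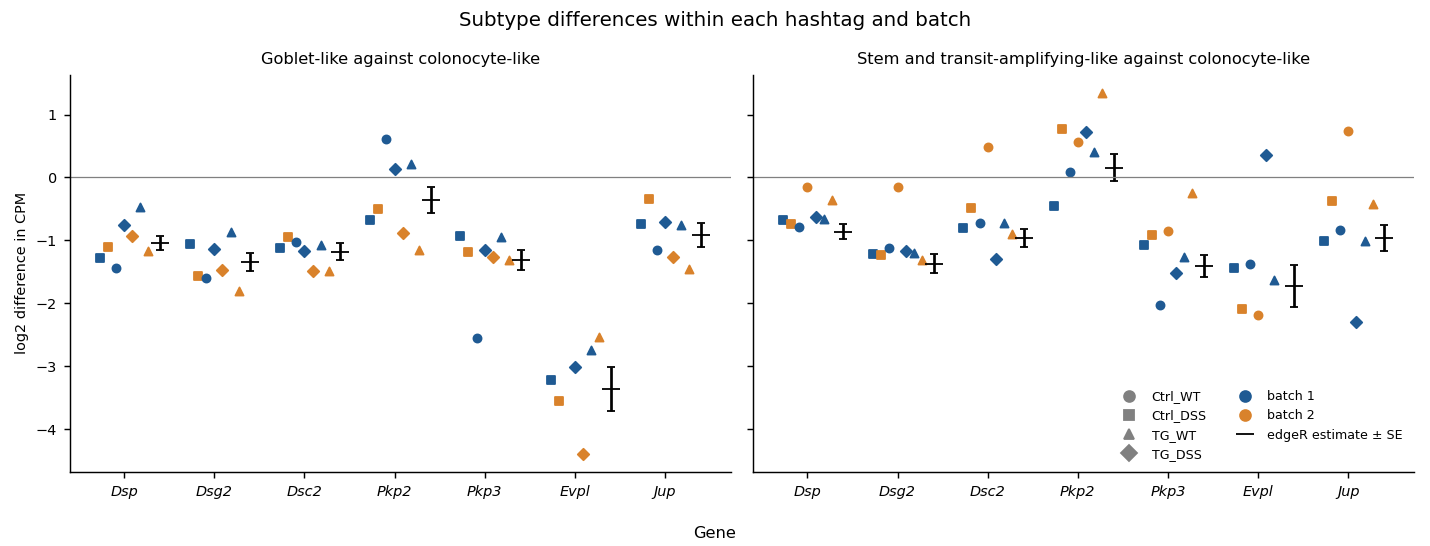
Log2 difference of 6 of the genes and Jup from colonocyte-like cells (y axis, log2 of the CPM ratio) within each block of tag (symbol) and batch (colour), for goblet-like and for stem and transit-amplifying-like cells, beside the edgeR estimate and its SE; 1 block of Evpl with no UMI is missing from each. Dsg2, Dsp and Pkp3 lie below 0 in all 7 blocks of both comparisons, and Pkp2 lies on both sides of 0.

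The untagged cells did not enter these tests and gave the same directions. In untagged goblet-like against untagged colonocyte-like cells, the log2 CPM differences in batches 1 and 2 were -1.46 and -1.85 for Dsg2, -1.07 and -1.15 for Dsc2, and -1.26 and -1.45 for Dsp. They were -1.17 and -1.24 for Pkp3, -3.16 and -4.18 for Evpl and -0.41 and -0.35 for Pkp2. In stem-like cells they were -1.34 and -1.72 for Dsg2, -0.90 and -1.20 for Dsp, -1.23 and -1.60 for Pkp3, and 0.28 and 0.15 for Pkp2.

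Enteroendocrine-like cells were tested against colonocyte-like cells as a comparison added after their Ppl level had been seen. Only 4 enteroendocrine-like sums had at least 10 cells, all labelled TG_WT or TG_DSS. Ppl gave 16, 11, 0 and 15 UMIs in them, in the order TG_DSS of batches 1 and 2 and TG_WT of batches 1 and 2, or 29.7, 30.6, 0 and 42.2 CPM, against 1.45, 3.15, 2.52 and 2.33 CPM in the matching colonocyte-like sums. It was higher in 3 of the 4 blocks, and 0 UMIs in the fourth allow up to 15.2 CPM. The fitted difference was 3.00 (SE 0.52, adjusted p = 4.1e-05). This test is a description of a gene picked for its level, and Ppl may have passed the filter through these sums alone. In untagged enteroendocrine-like cells Ppl stood at 36.6 and 49.0 CPM, a log2 difference from untagged colonocyte-like cells of 3.96 and 4.01. After thinning, 8.41% and 7.79% of all enteroendocrine-like cells had a Ppl UMI.

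Dsp (-1.68, SE 0.24), Dsg2 (-1.14, SE 0.19), Dsc2 (-2.01, SE 0.29) and Pkp3 (-2.65, SE 0.32) were lower in enteroendocrine-like cells, each with 4 of 4 blocks lower (15.9% of all genes) and adjusted p-values up to 3.4e-05. Of all 11670 genes tested here 26.2% were called higher and 21.7% lower. Pkp2 (-0.31, adjusted p = 0.481) and Evpl (0.44, adjusted p = 0.412) did not pass. Without the droplets that held leukocyte transcripts, Ppl did not pass the filter, and Dsp stood at -0.74 (adjusted p = 0.180). Jup was lower by -0.83 (adjusted p = 0.0243), a call lost without either TG_WT sum (-0.59 and -0.61), with DESeq2 (-0.63), with RLE scaling (-0.67) and without the block (-0.77).

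Within the colonocyte-like cells the genes varied by cluster. Dsg2 reached 540 and 611 CPM in a cluster led by Tgm3 and 513 and 523 CPM in one led by Slc10a2, and stood at 235 and 266 CPM in the one led by Car1. Dsp was 326 and 333, 334 and 311, and 165 and 185 CPM in the same 3 clusters. Dsc2 was distributed differently: it was highest in the Slc10a2 cluster (159.5 and 133 CPM), followed by the Car1 cluster (114 and 113 CPM), and lowest of the 4 colonocyte-like clusters in the Tgm3 cluster in batch 1 (76.1 CPM). Evpl was highest in the Tgm3 cluster, at 31.3 and 34.4 CPM.

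The 2 large goblet-like clusters differed too. Dsp stood at 84.8 and 70.4 CPM in the one led by Mptx1 and Retnlb and at 211 and 179.5 CPM in the one led by Clca1 and Zg16, and Dsg2 at 115 and 92.6 against 219 and 201 CPM. The goblet-like sums tested above pooled these clusters. In Dsp and Dsg2 the Clca1 cluster lay nearer than the Mptx1 cluster to the colonocyte-like Car1 cluster. Pkp2 was highest among stem-like clusters in the one led by Htr4 (45.4 and 44.1 CPM), against 31.7 and 35.0 CPM in the dividing cluster led by Ccnb2. These clusters differ in depth, with a median of 26302 UMIs per cell in the Mptx1 cluster and 6495 in the Clca1 cluster. A cluster of 254 cells led by Clca4b and Cxcl5 was left unnamed because of Ly6g, a neutrophil marker, among its leading genes. It had Dsp at 294 and 328 CPM, Dsg2 at 417 and 514 CPM and Pkp3 at 69.3 and 72.3 CPM.

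**Figure D4:**
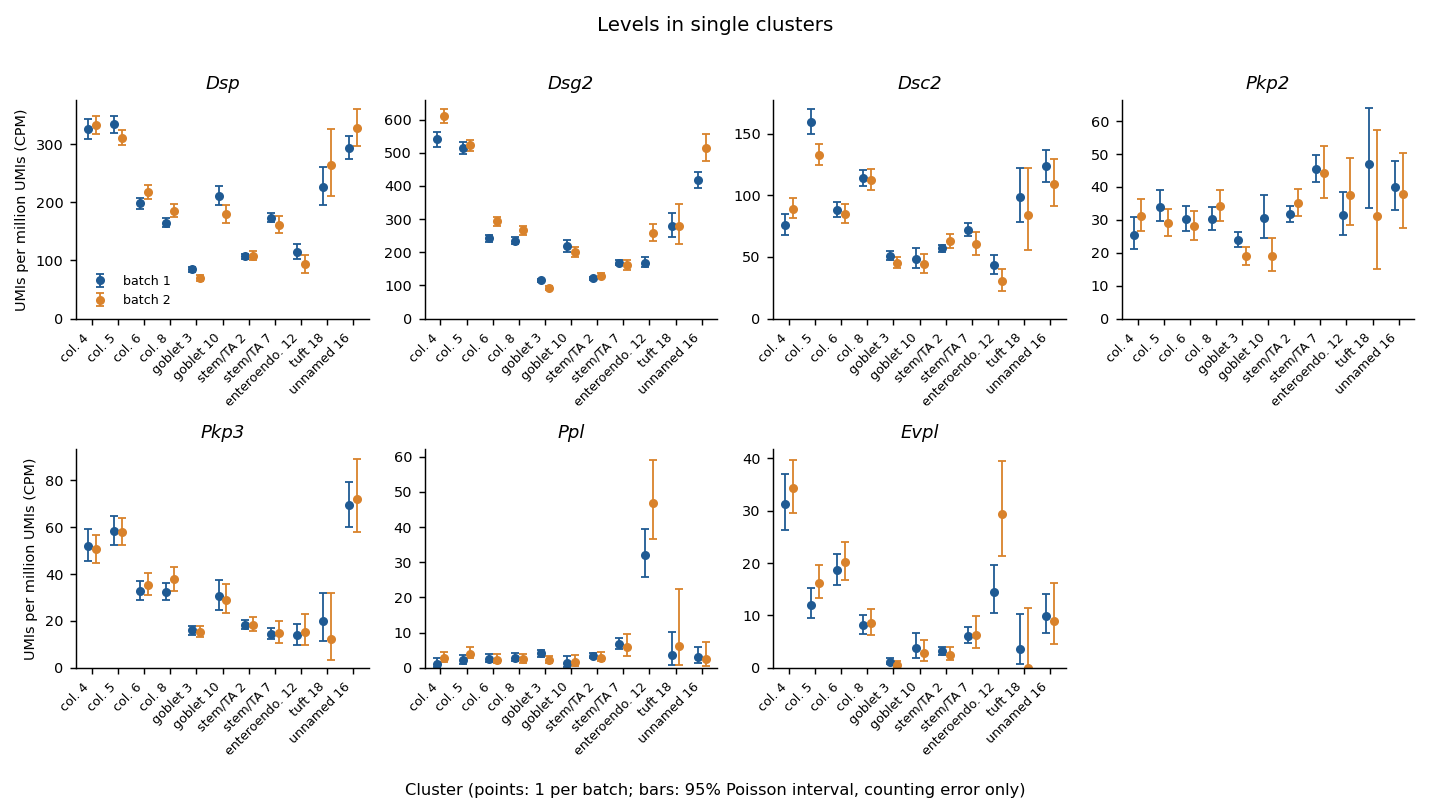
Level of each gene (y axis, CPM from 0) in the 10 larger epithelial-like clusters with a subtype and the unnamed cluster, with 1 point per batch and exact 95% Poisson intervals for counting error; cluster 4 is led by Tgm3, 5 by Slc10a2, 6 by Cyp2c68, 8 by Car1, 3 by Mptx1, 10 by Clca1, 2 by Ccnb2 and 7 by Htr4. Dsg2 and Dsp peak in the colonocyte-like clusters led by Tgm3 and Slc10a2, and Ppl in the enteroendocrine-like cluster.

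Across 22 sums of 12 epithelial-like clusters by batch, which share 2 libraries, Dsp and Dsg2 moved together (Pearson r = 0.87 of log2(CPM + 1)), as did Dsg2 and Pkp3 (0.85), Dsp and Pkp3 (0.83) and Dsg2 and Evpl (0.78). Dsg2 and Dsc2, the paired cadherins, gave 0.58. Pkp2 gave between -0.18 and 0.27 with every other member. Among 6334 genes, those most like Dsg2 were Vil1 (0.96), Pls1 (0.96) and Gng12 (0.96), of which villin and plastin 1 build the microvilli of the brush border. Dsp was most like Ptprh, Erbb2 (both 0.92) and Tmem236 (0.91). Pkp3 was most like Trim31 (0.97), Il17rc (0.96) and Naip1 (0.94), Evpl most like Hs6st1 (0.92), Map4 (0.92) and Tes (0.91), and Dsc2 most like Ildr1 (0.86), Tmem150b (0.86) and Lypla1 (0.85). For Pkp2 these were Ank (0.84), Shtn1 (0.80) and Pkig (0.80), and for Ppl Cnot7 (0.94), Ahcyl1 (0.93) and Pde1c (0.93). The Ppl values may rest mostly on the enteroendocrine-like cluster, where Ppl stood at 32.1 and 46.8 CPM against a mean of 6.99 CPM over all sums. Values within a batch share a library, and these correlations are descriptions only.

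The partner genes gave a setting for these differences. Against colonocyte-like cells, the median of the 6 tested members in goblet-like cells was -1.24, and that of all genes 0.12. Of 11 other desmosome genes, 5 were tested: Perp (-1.52), Jup and Pkp4 (-0.69) were lower and Pkp1 (1.27) higher, with a median of -0.72. Of 9 plakins and keratins, 4 were lower, Krt8 (-1.73), Krt19 (-1.73), Krt20 (-2.96) and Plec (-1.29), and 2 higher (median -0.20). Of 8 adherens junction genes, 7 were lower, among them Nectin3 (-1.67), Ctnna1 (-0.72), Cdh1 (-0.55) and Ctnnd1 (-0.50), and 1 higher (median -0.54). Of 6 hemidesmosome genes tested, 4 were lower, Lama3 (-2.74), Lamb3 (-1.29), Cd151 (-0.82) and Itgb4 (-0.46), with a median of -0.64.

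In stem-like cells the median of the tested members was -1.16, against 0.02 for all genes. Perp (-1.42) and Jup were lower and Pkp1 (1.77) higher among the other desmosome genes (median -0.12). Of the 9 plakins and keratins 7 were lower, including Krt20 (-3.88), Plec (-2.35), Dst (-1.62) and Krt8 (-1.39), with a median of -1.24. Of 8 adherens junction genes 6 were lower (median -0.65), and of 6 hemidesmosome genes 5 were lower (median -0.98), led by Lama3 (-4.98). In enteroendocrine-like cells Perp (-2.60), Krt8 (-2.03) and Krt19 (-2.09) were lower and Dsg3 (2.15), Krt7 (1.62) and Dst (1.07) higher.

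Between the tags, Jup was examined first, as the targeted gene. In epithelial-like cells Jup stood at 66.1 and 65.6 CPM in batches 1 and 2 with the tag Ctrl_WT, 78.2 and 83.5 CPM with TG_WT, 13.4 and 8.81 CPM with Ctrl_DSS and 23.8 and 38.9 CPM with TG_DSS. It was low in both tags named DSS and high in both tags named WT. Read by name, both low tags are conditions with DSS, and TG_WT, then a knockout tag, was not low. If the antibody numbering sets the order, both low tags are JUP-KO conditions. Which reading is right was not tested, so differences between tags named DSS and WT are not assigned to DSS or to genotype. The sources used here do not say which exons are deleted, and so whether 3′ reads would show the loss. The log2 difference of Ctrl_DSS from Ctrl_WT was -2.63 (SE 0.31, adjusted p = 0.136), and that of TG_DSS from TG_WT was -1.42 (SE 0.29, adjusted p = 0.325), by edgeR. That of TG_DSS from Ctrl_DSS was 1.49 (SE 0.31, adjusted p = 0.0666). DESeq2 called Jup in these 3 comparisons (adjusted p = 6.8e-09, 0.025 and 0.0044), as did edgeR without the filter on low counts (adjusted p = 1.7e-06, 0.0015 and 5.0e-04).

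None of the 7 genes passed edgeR's test between tags. Dsg2 stood at 223 and 233 CPM in epithelial-like cells labelled Ctrl_WT, 214 and 272 with TG_WT, 141 and 153 with Ctrl_DSS and 163 and 239 CPM with TG_DSS. Dsc2 stood at 86.0 and 88.8, 79.7 and 91.1, 54.6 and 55.8, and 67.5 and 51.4 CPM in the same order. Both Ctrl_DSS sums lay below both Ctrl_WT sums for both cadherins, which is set beside the share of all genes below.

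Pkp3 stood at 29.5 and 28.5 CPM with Ctrl_WT, 27.1 and 38.7 with TG_WT, 20.8 and 22.2 with Ctrl_DSS and 21.0 and 19.2 CPM with TG_DSS. Pkp2 stayed between 24.3 and 32.5 CPM in all 8 sums. Dsp stood at 174 and 182 CPM with Ctrl_WT, 169 and 163 with TG_WT, 129 and 117 with Ctrl_DSS and 123 and 153 CPM with TG_DSS. All 4 sums named DSS lay below all 4 named WT for 3 of the 7 genes, Dsp, Dsc2 and Pkp3, as for 3.79% of all genes. Evpl stood at 9.59 and 14.8, 6.91 and 9.39, 4.91 and 6.28, and 7.37 and 6.24 CPM in that order, and Ppl between 2.84 and 6.34 CPM.

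Comparing Ctrl_DSS with Ctrl_WT, 5 of the 7 genes (Dsp, Dsg2, Dsc2, Pkp3 and Evpl) had both sums below both, where 18.4% of all 12621 genes did. None of the 7 passed the test over all genes. The log2 differences were -0.69 for Dsg2 (SE 0.18, adjusted p = 0.248), -0.71 for Dsc2 (SE 0.18, adjusted p = 0.238), -0.59 for Dsp (SE 0.17, adjusted p = 0.273), -0.51 for Pkp3 (SE 0.22, adjusted p = 0.409), -1.13 for Evpl (SE 0.33, adjusted p = 0.270), -0.19 for Pkp2 (SE 0.18, adjusted p = 0.711) and 0.05 for Ppl (SE 0.56, adjusted p = 0.994). edgeR called 0% of all genes in this comparison. An unadjusted p under 0.05 was reached by 1548 genes (12.3%), among them Dsg2, Dsc2, Dsp and Evpl. DESeq2 called 231 genes (1.83%), including Dsg2 (-0.71, adjusted p = 0.0307). In simulated data of this layout the test recovered 36% of 2-fold and 98% of 4-fold differences. The simulation gave every gene the same fixed spread and changed only genes above the median level. These shares may therefore not hold for the real sums or for genes with few UMIs, such as Evpl and Ppl. In the real sums edgeR did not call Jup, at -2.63 (adjusted p = 0.136). The median over the 7 genes was -0.59, over 5 other desmosome genes -0.40, over 9 plakins and keratins -0.41, over 8 adherens junction genes -0.32, over 6 hemidesmosome genes -0.27 and over all genes 0.01.

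TG_WT differed from Ctrl_WT by -0.11 for Dsp, 0.06 for Dsg2, -0.04 for Dsc2, 0.10 for Pkp2, 0.13 for Pkp3, 0.33 for Ppl and -0.55 for Evpl, with standard errors from 0.17 to 0.56 and adjusted p-values from 0.891 to 0.999. Both TG_WT sums lay below both Ctrl_WT sums for Dsp and Evpl, as for 13.6% of all genes. edgeR called 0% of all genes here, DESeq2 called 8 (0.0634%), and 549 (4.35%) had an unadjusted edgeR p under 0.05. Comparing TG_DSS with TG_WT, Dsp gave -0.30, Dsg2 -0.31, Dsc2 -0.55, Pkp2 -0.11, Pkp3 -0.71, Ppl 0.27 and Evpl -0.23, and none passed (adjusted p-values from 0.385 to 0.902; 0% of all genes, 1273 or 10.1% at an unadjusted p under 0.05, 71 or 0.563% by DESeq2).

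TG_DSS against Ctrl_DSS gave 0.18 for Dsp, 0.44 for Dsg2, 0.12 for Dsc2, 0.18 for Pkp2, -0.07 for Pkp3, 0.55 for Ppl and 0.34 for Evpl, and none passed, where 1.33% of all genes were called (168 genes, and 0 without the block). Of these, 166 (1.32%) were higher and 2 (0.0158%) lower, and DESeq2 called 489 (3.87%). The difference between the DSS-named effects in TG and Ctrl tags, which is the same under both readings of the tags, was 0.29 for Dsp (SE 0.24), 0.38 for Dsg2 (SE 0.26), 0.17 for Dsc2 (SE 0.25), 0.08 for Pkp2 (SE 0.25), -0.20 for Pkp3 (SE 0.30), 0.22 for Ppl (SE 0.74) and 0.90 for Evpl (SE 0.46). Its adjusted p-values were 0.826 or more for all 7 genes, with 0% of all genes called, 11 (0.0872%) called by DESeq2 and 765 (6.06%) with an unadjusted edgeR p under 0.05. These comparisons share sums and are not independent of each other.

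**Figure D5:**
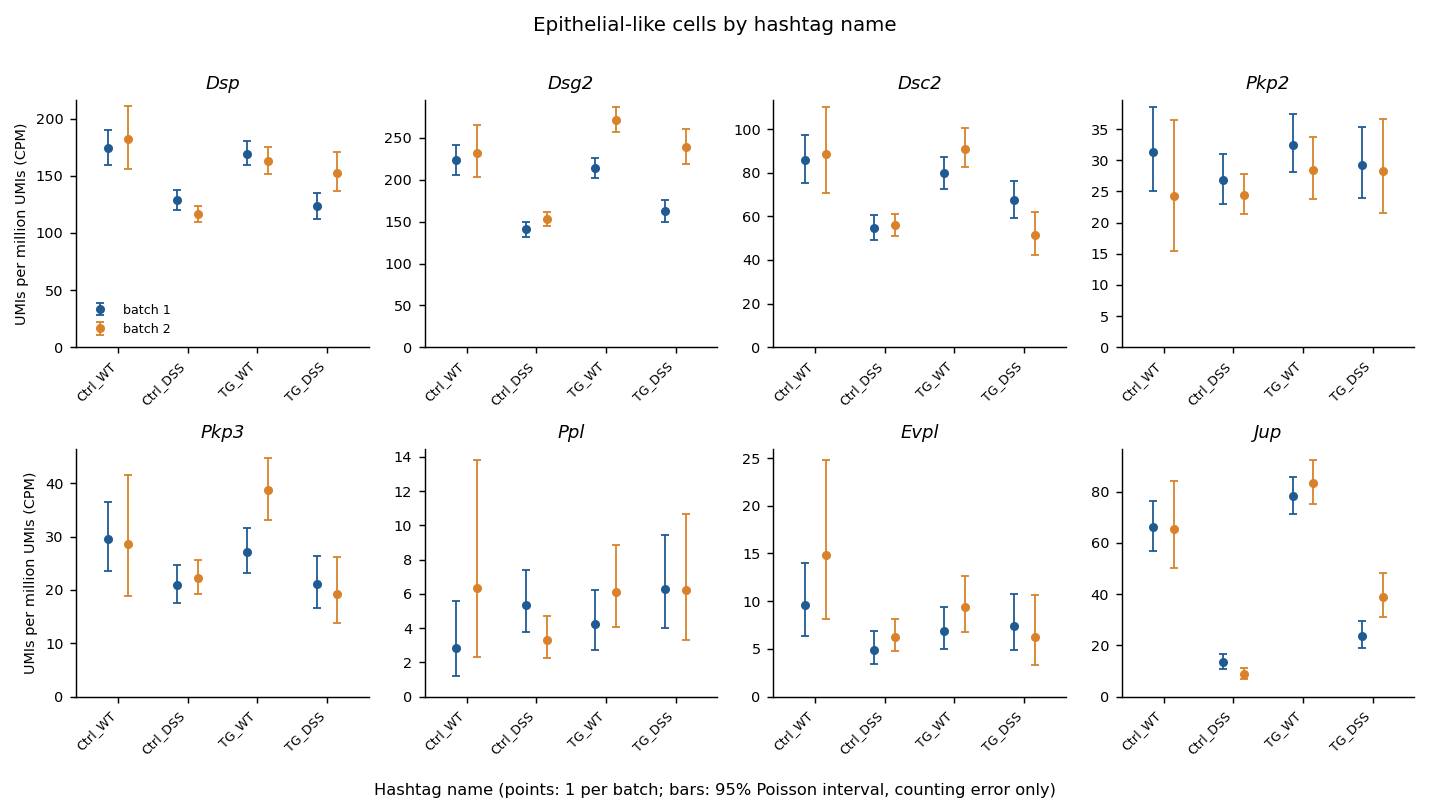
Level of each gene and of Jup (y axis, CPM from 0) in epithelial-like cells by tag, with 1 point per batch and exact 95% Poisson intervals for counting error. The Dsp, Dsc2 and Pkp3 points of Ctrl_DSS and TG_DSS lie below those of Ctrl_WT and TG_WT, Pkp2 stays between 24.3 and 32.5 CPM, and Jup is low in both tags named DSS.

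The mix of subtypes moved with the tags. Goblet-like cells, which had less Dsg2, Dsc2, Dsp, Pkp3 and Evpl, made up 44.3% and 42.8% of the Ctrl_DSS epithelial-like cells in batches 1 and 2, 39.5% and 36.4% of those labelled TG_DSS, 30.6% and 26.1% with TG_WT and 24.4% and 12.3% with Ctrl_WT. Colonocyte-like cells were 20.3% and 32.2% with Ctrl_DSS, 22.5% and 20.0% with TG_DSS, 38.9% and 41.7% with TG_WT and 41.2% and 59.6% with Ctrl_WT. Droplets with leukocyte transcripts, counted after thinning, were 80% and 80.8% of epithelial-like cells labelled TG_DSS, 20.9% and 73.6% with TG_WT, 31.0% and 39.2% with Ctrl_DSS and 32.8% and 19.6% with Ctrl_WT. Without them the TG_DSS and TG_WT differences were 0.09 for Dsp, 0.04 for Dsg2, 0.14 for Dsc2, 0.02 for Pkp3 and 0.39 for Evpl. The sums behind these values were small, and the cause of the change was not tested. The droplets left out were 100 of 125 and 84 of 104 thinned TG_DSS cells, and 153 of 208 thinned TG_WT cells of batch 2.

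Within colonocyte-like cells alone (8750 genes), the Ctrl_DSS and Ctrl_WT differences were -0.23 for Dsp, -0.22 for Dsg2, -0.23 for Dsc2, -0.30 for Pkp3, -0.32 for Evpl and 0.30 for Pkp2, and none passed (edgeR, 0% of all genes, 281 or 3.21% with unadjusted p under 0.05, 3 or 0.0343% by DESeq2). Dsg2 stood there at 337 and 269 CPM with Ctrl_WT and 243 and 280 CPM with Ctrl_DSS, and Dsp at 248 and 210 against 212 and 178 CPM, so the sums of both genes overlapped. Evpl alone of the 6 genes tested did not overlap, at 18.5 and 18.3 CPM with Ctrl_WT and 12.7 and 16.5 CPM with Ctrl_DSS, where 16% of all genes had both sums lower. Jup kept its difference there, at -2.34 (adjusted p = 0.238). TG_WT against Ctrl_WT gave -0.05 for Dsp, 0.27 for Dsg2, 0.37 for Dsc2, 0.35 for Pkp2, 0.15 for Pkp3 and -0.60 for Evpl, and none passed (edgeR, 0% of all genes, 288 or 3.29% with unadjusted p under 0.05, 4 or 0.0457% by DESeq2).

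Goblet-like cells allowed a test of Ctrl_DSS against TG_WT (10946 genes), since Ctrl_WT of batch 2 had 7 such cells. Under either reading of the tags these groups differ in both genotype and DSS, which cannot be told apart in this comparison. Dsp stood at 87.3 and 82.7 CPM with Ctrl_DSS and at 150 and 100 CPM with TG_WT, and Dsg2 at 117 and 94.4 against 175 and 119 CPM. Both sums lay below both for Dsp, Dsg2, Dsc2 and Pkp3, as for 13.5% of all genes, but the differences of -0.61, -0.53, -0.38 and -0.40 did not pass, with adjusted p-values from 0.597 to 0.655 (edgeR, 0% of all genes, 912 or 8.33% with unadjusted p under 0.05, 6 or 0.0548% by DESeq2). Pkp2 gave -0.25, and Ppl and Evpl did not pass the filter.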

How the data were processed

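The authors deposited, for all barcodes of each batch, unnormalized UMI counts over 32285 genes and 4 antibody tags, made with Cell Ranger 7.0.0 on mm10 per the submitters' processing notes. The sources used here do not give the annotation release. A barcode was called a cell when its UMIs reached 0.1 of the level at percentile 99 among the 14000 richest, or when it had at least 500 UMIs and a profile unlike the ambient one (adjusted p at most 0.01), and cells under 250 genes or over 25% mitochondrial UMIs were dropped. Tags were called per batch with a 2-component Gaussian mixture (scikit-learn 1.9.0). Cells with several tags, 4.05% and 10.8%, were left out as doublets, and no other doublet caller was run. Clusters came from scanpy 1.11.5 (2000 variable genes, 30 components, 15 neighbours, Leiden at resolution 1, leidenalg 0.10.2), with 42 genes left out, namely the 7 genes and their partner lists. A cluster was named from at least 3 markers detected in 25% of its cells. Names rebuilt this way may differ from the study's.

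Counts were summed per tag and batch, or per tag, batch and subtype with at least 10 cells, and tested with edgeR 4.0.16 (glmQLFit and glmQLFTest, TMM, filterByExpr, R 4.3.3), with Benjamini-Hochberg adjustment over all genes and a threshold of 0.05. The batch, or the tag and batch, was a block, because the labels say that cells of a batch were pooled, sorted and loaded together. The 8 epithelial-like sums hold 57 to 395 cells. The test was checked on simulated data. DESeq2 1.42.0, RLE scaling, no low-count filter, other tag and mitochondrial rules, other resolutions, equal cell numbers and each sum left out were tried as alternatives. The named genes were all 7 members with Jup, up to 4 called genes of each partner list in the order of adjusted p, and the 3 genes most like each member among those with a mean of at least 20 CPM. The members and lists were chosen with earlier results of these data known. Intervals and floors (3 counts) cover counting error only.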

Additional observations from a re-analysis of the deposited data

Results flagged for a closer look

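The levels and within-block differences of the 7 genes gave 47 groups of 4 to 10 sums that could be searched for a sum standing apart from the others, and 6 did so by Dixon's criterion, which marks about 1 group in 20 by chance. In 5 of the 6 the sum standing apart is of stem and transit-amplifying-like cells. Dsc2 reached 117 CPM in the Ctrl_WT sum of batch 2, above the median of 69.2 CPM over the 7 stem-like sums. Pkp2 reached 83.2 CPM in the TG_WT sum of batch 2, against a median of 35.8 CPM. Pkp3 reached 46.2 CPM in that same TG_WT sum, from 15 UMIs, against a median of 17.7 CPM. The difference of Dsg2 between stem-like and colonocyte-like cells was -0.15 within Ctrl_WT of batch 2, against a median of -1.19 over the blocks. Evpl was higher in stem-like than in colonocyte-like cells by 0.36 within TG_DSS of batch 1, from 8 and 7 UMIs, where the median was -1.53. The remaining one is the Pkp3 difference between goblet-like and colonocyte-like cells within Ctrl_WT of batch 1, at -2.55 from 7 and 61 UMIs, against a median of -1.18.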

How the results depend on the processing

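Of 184 alternative counts of called members, 182 stayed within 1.5 times the reported count. With DESeq2, 1 member was called in Ctrl_DSS against Ctrl_WT in place of 0. Over 82 fold changes and 1358 alternative values, 1260 kept direction and call, 8 lost and 22 gained a call, and 68 changed sign, none of them a called value. The 5 calls each in goblet-like and stem-like cells held under every alternative in which those genes were tested, and those of Evpl remain descriptions. Genes called over all genes ranged from 0 to 244 (Ctrl_DSS against Ctrl_WT), 0 to 85 (TG_WT against Ctrl_WT), 0 to 304 (TG_DSS against TG_WT), 0 to 836 (TG_DSS against Ctrl_DSS), 0 to 138 (interaction), 4553 to 6565 (goblet-like), 4027 to 6196 (stem-like) and 1813 to 5710 (enteroendocrine-like). Without the replicate block, the paired fit's Jup difference in goblet-like cells went to -1.15 and 0 genes in place of 168 were called in TG_DSS against Ctrl_DSS, while the block changed no member's call. RLE scaling moved the median of all genes from 0.14 to 0.29 in enteroendocrine-like cells. Few cells with Ctrl_WT (57 epithelial-like ones in batch 2) and 2 sums per tag limit what the tag tests can show. The causes of the changes of sign below were not tested.

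Without droplets with leukocyte transcripts, TG_DSS against TG_WT changed sign to 0.088 (Dsp), 0.042 (Dsg2), 0.14 (Dsc2), 0.060 (Pkp2), 0.018 (Pkp3) and 0.39 (Evpl). The same setting gave Pkp3 0.80 in TG_DSS against Ctrl_DSS and 0.43 in the interaction, Dsp 0.00067 in colonocyte-like TG_WT against Ctrl_WT, Pkp2 -0.15 in stem-like cells and Evpl -0.060 in enteroendocrine-like cells. Without the tuft-like, goblet-like and enteroendocrine-like clusters, TG_WT against Ctrl_WT gave 0.20 (Dsc2) and -0.16 (Ppl), Ctrl_DSS against Ctrl_WT 0.13 (Pkp2), TG_DSS against TG_WT -0.17 (Ppl) and 0.37 (Evpl), TG_DSS against Ctrl_DSS 0.31 (Pkp3) and -0.36 (Ppl), and the interaction -0.33 (Pkp2), 0.10 (Pkp3) and -0.19 (Ppl). With equal cell numbers, TG_WT against Ctrl_WT gave 0.15 (Dsc2) and -0.18 (Pkp2), TG_DSS against TG_WT 0.034 (Pkp2) and TG_DSS against Ctrl_DSS 0.15 (Pkp3). With at most 10% mitochondrial UMIs, Dsc2 gave 0.038 in TG_WT against Ctrl_WT, Pkp2 0.0045 and Ppl -0.013 in Ctrl_DSS against Ctrl_WT, and Pkp2 -0.12 in the interaction. The highest-tag rule gave -0.010 (Dsg2) and -0.11 (Pkp3) in TG_WT against Ctrl_WT, -0.48 (Ppl) in the interaction, and 0.13 (Dsg2) and 0.26 (Pkp3) in colonocyte-like Ctrl_DSS against Ctrl_WT. At resolution 0.5 the last of these was 0.12, and at resolution 2 Dsp gave 0.0083 in colonocyte-like TG_WT against Ctrl_WT.

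With each sum left out in turn, further values changed sign within these ranges. In epithelial-like cells, TG_WT against Ctrl_WT ran from -0.073 to 0.23 (Dsg2), -0.20 to 0.12 (Dsc2), -0.13 to 0.42 (Pkp3) and -0.33 to 0.87 (Ppl), Ctrl_DSS against Ctrl_WT from -0.65 to 0.59 (Ppl), and TG_DSS against TG_WT from -0.0645 to 0.58 (Ppl) and -0.60 to 0.041 (Evpl). TG_DSS against Ctrl_DSS ran from -0.040 to 0.37 (Dsp), -0.12 to 0.31 (Dsc2), -0.24 to 0.051 (Pkp3), -0.012 to 1.22 (Ppl) and -0.024 to 0.62 (Evpl), and the interaction from -0.070 to 0.36 (Dsc2), -0.094 to 0.18 (Pkp2), -0.51 to 0.043 (Pkp3) and -0.32 to 0.95 (Ppl). In colonocyte-like cells, TG_WT against Ctrl_WT ran from -0.24 to 0.16 (Dsp), -0.080 to 0.70 (Dsg2) and -0.15 to 0.57 (Pkp3), and Ctrl_DSS against Ctrl_WT from -0.59 to 0.21 (Dsg2), -0.47 to 0.071 (Dsc2), -0.12 to 0.66 (Pkp2) and -0.61 to 0.12 (Pkp3). Pkp2 in goblet-like cells ran from -0.53 to 0.10 and Evpl in enteroendocrine-like cells from -0.23 to 0.66.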

Other observations

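Cells in which no tag was called took no part in the tag comparisons. In untagged epithelial-like cells Dsp stood at 162 CPM in batch 1 (4042 cells) and 204 CPM in batch 2 (2187 cells). A cluster of droplets with both epithelial and neutrophil markers, kept apart from the epithelial-like cells, had Dsp at 136 CPM in both batches and Dsg2 at 134 and 170 CPM. Endothelial-like cells (18 and 24 cells) had Jup at 176 and 104 CPM, from 11 and 6 UMIs (exact 95% Poisson intervals 87.8 to 315 and 38.1 to 226 CPM), against 32.6 and 35.0 CPM in epithelial-like cells. They held no Pkp2, Pkp3 or Evpl UMI.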
